A study of Mus musculus with 4 samples.

Results

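Oligodendrocytes are the glial cells that wrap axons in myelin, and 28 genes of their lineage were followed here in RNA from CD11b+ brain cells. The genes were taken by symbol from a list that covers 3 stages, and all 28 were found among the 49993 genes that carried a count in each of the 4 tables. The precursor and lineage stage held 5 genes, the newly formed stage 4 and the myelinating stage 19. The myelinating genes were read as 10 genes of the myelin sheath and membrane and 9 genes of lipid synthesis, metabolism and signalling.

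The cells were CD11b+ microglia, separated by magnetic beads out of brain tissue of mice aged 10 months, and each group had 2 bulk RNA-seq libraries. Mice of both groups carried APP/PS1, transgenes that drive amyloid deposition. Libraries labelled AD came from APP/PS1+ asrij+/+ mice. Libraries labelled AD/KO came from APP/PS1+ asrij-/- mice, in which the deletion of asrij, the gene Ociad1, was constitutive and so present in every cell. The labels do not state whether animals were pooled or whether replicates came from separate mice, so that p-values measure only the spread between these libraries, which may be technical.

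Each library held between 13102622 and 19810076 counts, and both AD/KO libraries held more than either AD library. Raw counts of Ociad1, not scaled to library size, were 691 and 1032 under the label AD and 746 and 592 under AD/KO. Its transcript was thus detected in both groups, and no difference in level is read from these raw counts. The group names therefore mean the libraries with that label, and each direction below is a difference between labels. Levels are given as CPM, counts divided by the library total in units of 1e+06 counts, with that total adjusted by edgeR's TMM method. Where 4 values stand in a row, the AD libraries come first and the AD/KO libraries after them, each as replicate 1 and then 2.

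Oligodendrocyte precursors express the growth factor receptor Pdgfra and the transcription factors Olig1, Olig2, Sox10 and Nkx2-2. As they stop dividing they pass through a brief premyelinating state marked by Gpr17, Enpp6 and Bcas1, and Myrf then switches on the myelin genes. Mature cells make large amounts of a few membrane proteins and of galactolipids. Some myelin mRNAs, Mbp and Mobp among them, are carried out of the cell body and translated at the sheath. A selection for CD11b, an integrin of myeloid cells, is meant to leave these cells behind.

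Promoters are shown for Mobp, whose level was highest in AD/KO, and for Mag, Mog and Opalin, whose levels were highest in an AD library; these genes were chosen after their values were seen. Promoter windows from RefSeq for GRCm38.p6 were matched to 19 of the 28 genes, and the sequences are the 250 bases before the annotated start, 5′ to 3′ on the strand of the gene. Bcas1, Fa2h, Gpr17, Mbp, Myrf, Ndrg1, Olig1, Sox10 and Trf are named only. Capitals mark matches on either strand. The motifs were CTGGNAC (N is any base, a loose pattern for Myrf-type factors), ACAAAG and ACAATG (Sox-type factors) and CAGCTG (an E-box, read by factors such as Olig2). These motifs share no letters with each other in the windows shown.

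Mobp, chr9:120149492-120149741, plus strand: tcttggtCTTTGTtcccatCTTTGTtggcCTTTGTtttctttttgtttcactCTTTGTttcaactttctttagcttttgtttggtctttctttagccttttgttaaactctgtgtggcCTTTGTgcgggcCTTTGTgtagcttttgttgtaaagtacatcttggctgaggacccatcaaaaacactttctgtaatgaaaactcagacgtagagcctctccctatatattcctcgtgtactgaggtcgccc
Mag, chr7:30914923-30915172, minus strand: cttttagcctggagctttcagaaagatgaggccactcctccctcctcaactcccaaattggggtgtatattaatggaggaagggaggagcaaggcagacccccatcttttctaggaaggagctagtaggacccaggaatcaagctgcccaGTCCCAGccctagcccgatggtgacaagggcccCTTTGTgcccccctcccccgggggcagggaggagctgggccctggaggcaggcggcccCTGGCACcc
Mog, chr17:37023399-37023648, minus strand: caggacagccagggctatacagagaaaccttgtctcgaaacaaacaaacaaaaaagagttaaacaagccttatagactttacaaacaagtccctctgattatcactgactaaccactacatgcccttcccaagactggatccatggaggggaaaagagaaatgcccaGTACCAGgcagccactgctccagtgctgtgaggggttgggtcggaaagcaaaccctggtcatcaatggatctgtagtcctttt
Opalin, chr19:41077114-41077363, minus strand: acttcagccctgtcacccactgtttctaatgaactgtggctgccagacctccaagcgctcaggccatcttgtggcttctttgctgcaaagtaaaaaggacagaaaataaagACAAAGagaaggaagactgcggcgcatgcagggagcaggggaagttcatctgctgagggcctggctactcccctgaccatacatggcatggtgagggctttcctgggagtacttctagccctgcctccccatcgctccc

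The Mobp window held 6 matches to ACAAAG, all on the strand opposite to the gene and between 243 and 120 bases before the start. It was the only 1 of 32851 windows of this length with at least 6. The cut of 6 equals the count of Mobp itself, so this says only that no other window had as many. Mag held 2 matches to CTGGNAC, at 100 and 9 bases before the start shown, and 1 to ACAAAG. That start is the outermost of several annotated for Mag. In the window from 30914864 to 30915113 the CTGGNAC matches lay at 159 and 68 bases. The window from 30914322 to 30914571 held 0. The bases after the start shown were not found in a GENCODE transcript of Mag, while those after the other starts were. Mog held 1 match to CTGGNAC at 83 bases, and Opalin 1 to ACAAAG at 139 bases. Among the 19 genes, 4 had a window with CTGGNAC (Apod, Cnp, Mag and Mog), where 16.1% of all windows held it. ACAAAG was present for 6 genes (16.5% of all windows), ACAATG for 4 (10.7%) and CAGCTG for 1 (13.0%). A match describes letters and not a bound site.

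Reads of the 28 genes made up 0.282%, 0.408%, 0.506% and 0.917% of the counts of the 4 libraries. The summed level was 2678, 3996, 5096 and 9859 CPM, so that the AD/KO libraries lay above the AD libraries. Mbp and Mobp, the most abundant beside Trf, held 47.0%, 46.2%, 64.4% and 77.3% of the reads of the 28 genes. A mean of log2 levels, which weighs each gene alike, gave another order, with 4.53, 5.61, 5.19 and 5.84. In that measure the groups overlapped, since AD replicate 2 lay above AD/KO replicate 1. In bulk RNA, the number of oligodendrocytes and the RNA content of each cannot be told apart.

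**Figure D1:**
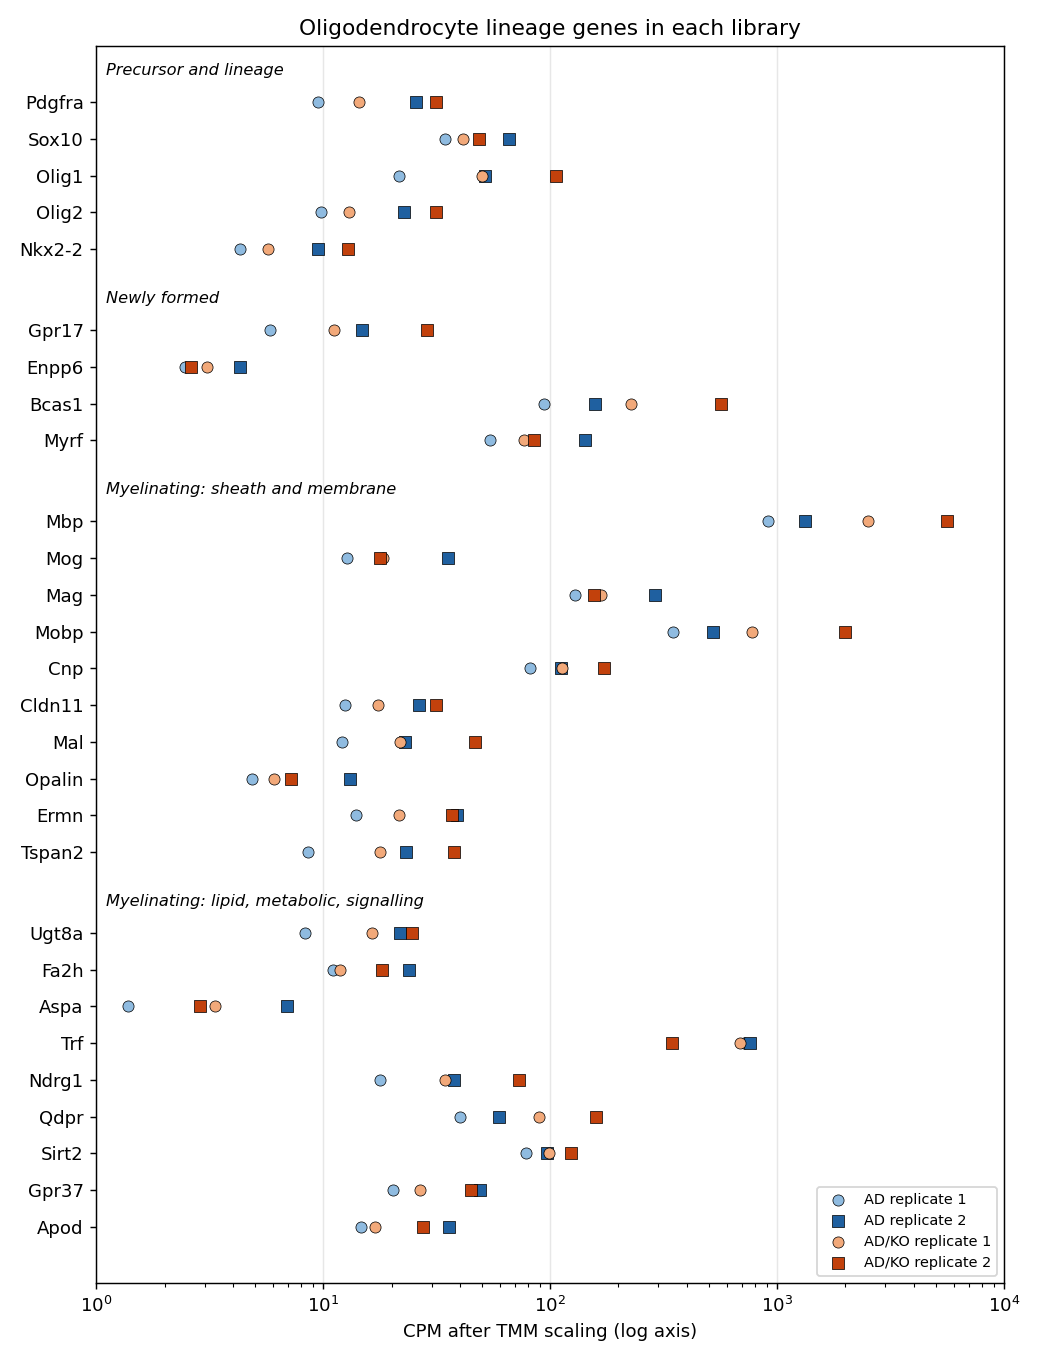
Level of each of the 28 genes in CPM after TMM scaling, on a log axis, with 1 point for each library. Mbp, Mobp, Bcas1 and Qdpr have both AD/KO points to the right of both AD points, while Mog, Mag, Opalin and Myrf have AD replicate 2 farthest to the right.

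Libraries labelled AD/KO were compared with those labelled AD by edgeR's quasi-likelihood test across 21439 genes. All 28 members passed the filter on low counts. No member passed an adjusted p of 0.05 (0 of 28, with values from 0.680 to 0.980), where the share called over all genes was 0%. Without adjustment, Bcas1 and Qdpr were the only members with a p under 0.05, 2 of 28 against 5.00% of all genes. With DESeq2 as the test, 0 members were called against 0.465% of all genes with an adjusted p. The smallest of these was that of Mbp, with a DESeq2 adjusted p of 0.0869.

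By direction alone, 18 members were higher and 10 lower in AD/KO, where 47.2% of all genes were higher. The median log2 fold change was 0.36, against −0.05 over all genes tested. Both AD/KO libraries lay above both AD libraries in 6 members (Bcas1, Mbp, Mobp, Cnp, Qdpr and Sirt2), or 6 of 28, against 20.3% of all genes. They lay below both AD libraries in 1 member, Trf, against 21.7% of all genes. The groups overlapped in the other 21. An exact permutation test of 1 gene with 2 libraries a group cannot give a two-sided p below 0.333.

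**Figure D2:**
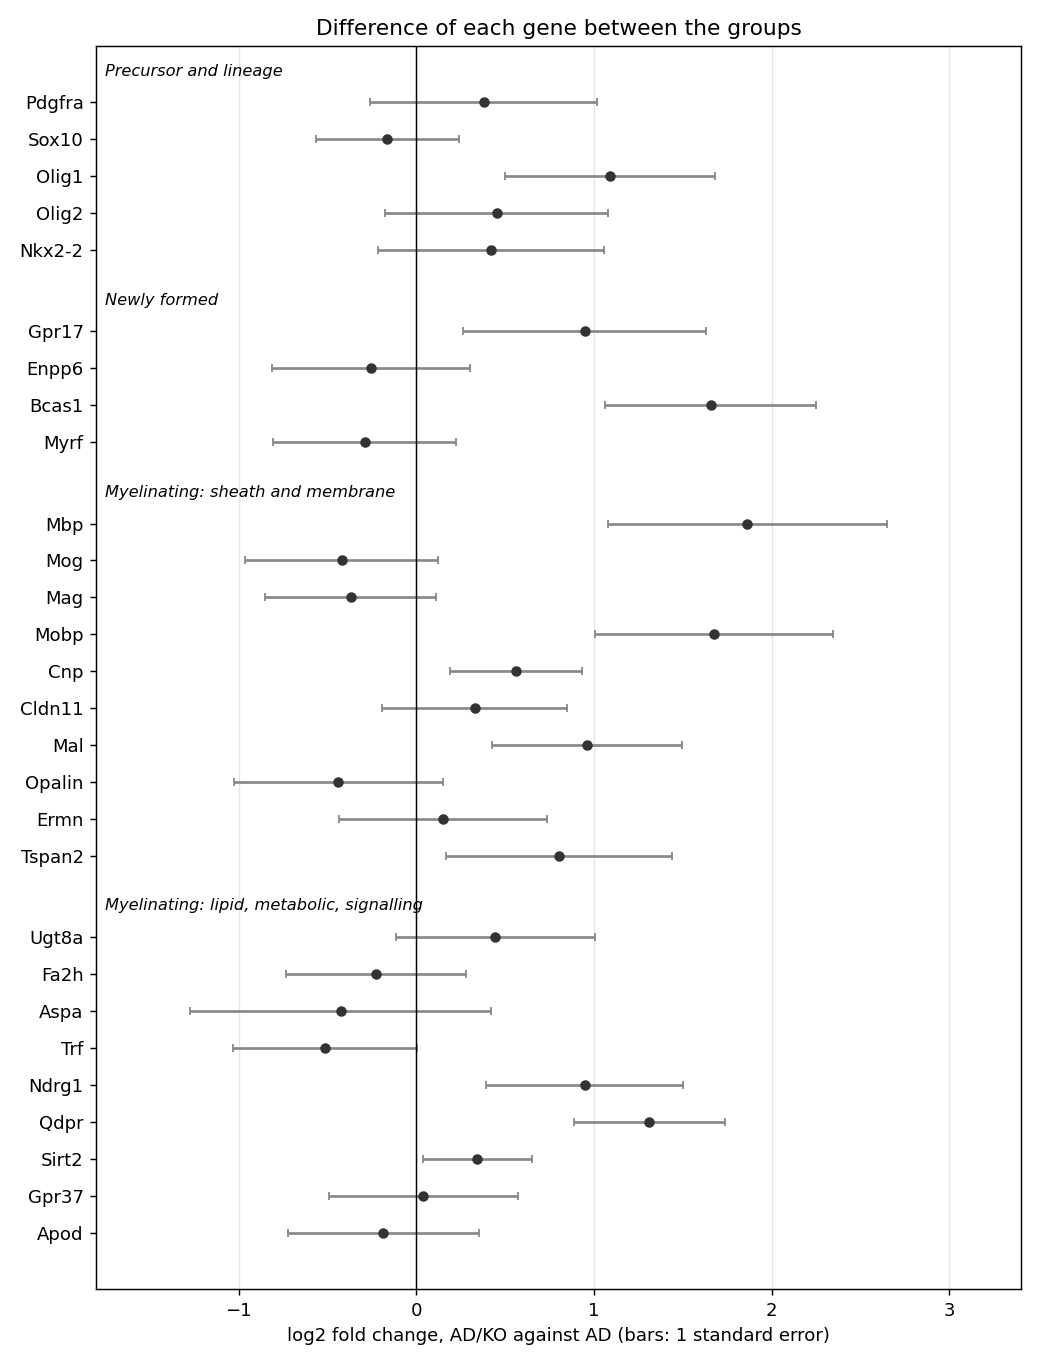
The log2 fold change of AD/KO against AD for each gene from edgeR, with bars of 1 standard error. Values run from −0.51 for Trf to 1.86 for Mbp, and none passed the adjusted threshold.

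Among precursor and lineage genes, the median log2 fold change was 0.42, and 4 of 5 were higher in AD/KO. The groups overlapped in all 5, where 20.3% of all genes lay above and 21.7% below without overlap. Pdgfra, the receptor for platelet-derived growth factor A on precursors, stood at 9.51, 25.5, 14.3 and 31.3 CPM. Replicate 2 was the higher library of each group, and the groups overlapped (log2 fold change 0.38, SE 0.64). Olig2, a basic helix-loop-helix factor that specifies the lineage, followed the same order at 9.80, 22.6, 13.0 and 31.4 CPM (0.45, SE 0.63). Nkx2-2, a homeodomain factor of differentiating precursors, did so too at 4.28, 9.53, 5.73 and 12.8 CPM (0.42, SE 0.64). For these 3 genes AD/KO replicate 1 lay closer to AD replicate 1 than to AD replicate 2.

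Olig1 shared that order of libraries, and Sox10 did not. Olig1 (chromosome 16, 91269769 to 91271939), which acts in the maturation of oligodendrocytes, was at 21.6, 51.9, 50.1 and 106 CPM. Its log2 fold change of 1.09 (SE 0.59) was the highest of the stage, although AD/KO replicate 1 did not reach AD replicate 2. Sox10, the factor that maintains the lineage and acts on myelin genes, was at 34.3, 66.1, 41.2 and 48.5 CPM. Here AD replicate 2 was the highest library, and the log2 fold change was −0.16 (SE 0.40).

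The 4 genes of the newly formed stage split evenly, with 2 higher, 2 lower and a median log2 fold change of 0.35. Bcas1 (chromosome 2, 170343973 to 170427911), which marks premyelinating and early myelinating cells, was at 93.7, 158, 228 and 567 CPM. AD averaged 126 ± 45.7 CPM and AD/KO 398 ± 240.2 CPM (each SD, n = 2). Both AD/KO libraries lay above both AD libraries, with a log2 fold change of 1.66 (SE 0.59, adjusted p of 0.680). Of its exon length, 11.7% overlaps the antisense gene Bcas1os1, and whether the counting used strand is not given in the sources used here.

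Gpr17, a G-protein-coupled receptor that holds cells before myelination, stood at 5.81, 14.8, 11.1 and 28.6 CPM (0.95, SE 0.68). Its order of libraries was that of Pdgfra and Olig2. Myrf, the membrane-bound factor that drives myelin genes, was at 54.1, 143, 76.3 and 84.8 CPM, with a log2 fold change of −0.29 (SE 0.52). Enpp6, a choline phosphodiesterase of cells that begin to myelinate, was the least abundant of the stage at 2.47, 4.30, 3.08 and 2.60 CPM (−0.25, SE 0.56). Both were highest in AD replicate 2, and both groups overlapped.

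Among the 10 genes of the myelin sheath and membrane, 7 were higher and 3 lower in AD/KO, with a median log2 fold change of 0.44. Mbp (chromosome 18, 82475091 to 82585637), the basic protein that compacts the sheath from the inside, was at 910.2, 1324, 2504 and 5619.7 CPM. Means were 1117 ± 293 CPM and 4062 ± 2203 CPM (each SD, n = 2), and the log2 fold change was 1.86 (SE 0.78). Mobp (chromosome 9, 120149742 to 120181488), a smaller basic protein of the compact sheath, was at 348, 524, 779 and 2002 CPM (1.67, SE 0.67). For both genes each AD/KO library exceeded each AD library, and AD/KO replicate 2 was the highest library. Neither passed the adjusted threshold (0.680 for each, edgeR).

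Mog, Mag and Opalin showed the other pattern. Mog (chromosome 17, 37010740 to 37023398), a glycoprotein of the outermost membrane, was at 12.8, 35.6, 18.4 and 17.8 CPM, and its log2 fold change was −0.42 (SE 0.54). Mag (chromosome 7, 30899175 to 30914922), which faces the axon on the innermost membrane, was at 128, 289.5, 168 and 156 CPM (−0.37, SE 0.48). Opalin, a membrane protein of mature oligodendrocytes (chromosome 19, 41061959 to 41077113), was at 4.86, 13.1, 6.05 and 7.22 CPM (−0.44, SE 0.59). In all 3, both AD/KO libraries lay between the AD libraries, and AD replicate 2 was the highest.

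The other 5 sheath genes lay between these patterns. Cnp, the cyclic nucleotide phosphodiesterase of non-compact myelin, was at 81.7, 112, 113 and 172 CPM (0.56, SE 0.37). Its groups were separated only by the gap from 112 to 113 CPM. Dnajc7 on the opposite strand, with 1527 to 2610 reads a library, overlaps 4.23% of the exon length of Cnp. Mal, a proteolipid of membrane sorting, was at 12.1, 23.0, 21.8 and 46.6 CPM (0.96, SE 0.53). Tspan2, a tetraspanin of the sheath, was at 8.56, 23.2, 17.8 and 37.7 CPM (0.80, SE 0.63). Cldn11, the claudin of myelin tight junctions, had a log2 fold change of 0.33 (SE 0.52) and Ermn, a cytoskeletal protein of late differentiation, of 0.15 (SE 0.58). All but Ermn were highest in AD/KO replicate 2.

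Among the 9 genes of lipid synthesis, metabolism and signalling, 5 were higher and 4 lower in AD/KO, with a median log2 fold change of 0.04. Qdpr (chromosome 5, 45434032 to 45450229), which recycles the cofactor tetrahydrobiopterin and is abundant in oligodendrocytes, was at 40.2, 59.7, 88.9 and 159 CPM. The labels did not overlap, and the log2 fold change was 1.31 (SE 0.42). The antisense gene Gm42413 covers 18.6% of its exon length. Sirt2, a tubulin deacetylase of myelin, was at 78.2, 96.9, 98.9 and 124 CPM (0.34, SE 0.31), with a gap between the groups of only 96.9 to 98.9 CPM. Nfkbib on the opposite strand, with 187 to 320 reads a library, overlaps 0.83% of the exon length of Sirt2. Ndrg1, a myelin maintenance protein found in many tissues, was at 17.8, 37.7, 34.3 and 72.8 CPM (0.95, SE 0.55).

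The enzymes of myelin lipids gave smaller differences than Qdpr. Ugt8a, which makes galactosylceramide, was at 8.27, 21.8, 16.5 and 24.5 CPM (0.44, SE 0.56). Fa2h, which hydroxylates the fatty acids of these lipids, was at 11.0, 24.0, 11.8 and 18.1 CPM (−0.23, SE 0.51). Aspa, which frees acetate from N-acetylaspartate, was at 1.38, 6.95, 3.34 and 2.88 CPM (−0.43, SE 0.85) and rested on 19 to 113 reads a library. Gpr37, a receptor that times differentiation, had a log2 fold change of 0.04 (SE 0.53) and Apod, a lipid carrier, of −0.18 (SE 0.54). Fa2h, Aspa, Gpr37 and Apod were highest in AD replicate 2.

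Trf, the iron carrier transferrin, stood alone among the 28. It was at 718, 759, 689.7 and 345 CPM, a log2 fold change of −0.51 (SE 0.52), and AD/KO replicate 2 was the lowest library. The 10 microglia markers summed to 17779, 11938, 17609 and 5285 CPM and were also lowest in AD/KO replicate 2. Their part in the value of Trf was not tested. Per kb of exon, Trf ranked highest of the 28 in both AD libraries (216 and 229 CPM per kb), and Mbp ranked highest in both AD/KO libraries (296 and 664 CPM per kb). A gene on the same strand, Gm20425, overlaps 63.5% of the exon length of Trf and was not analysed here. Like Bcas1os1 and Gm42413, it carried no count under its symbol.

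**Figure D3:**
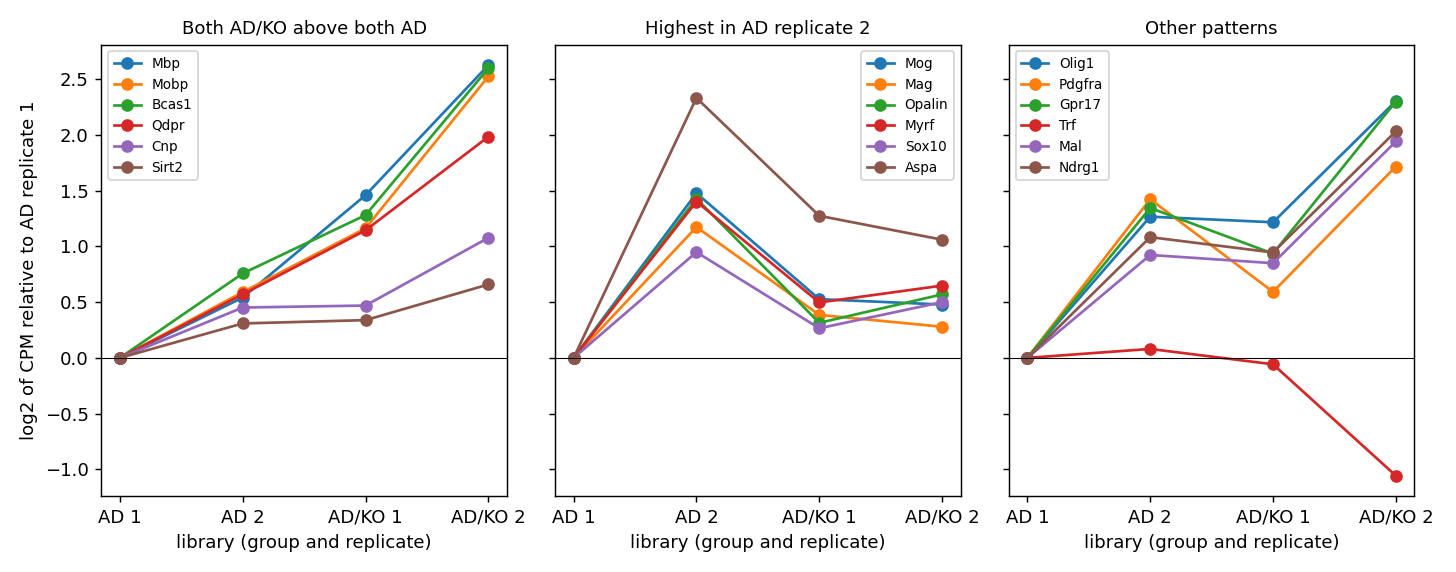
Level of 18 of the genes relative to AD replicate 1, as log2 of the ratio of CPM, in the 4 libraries. Lines only join the values of a gene, since libraries have no order. In the first panel Mbp is highest, at 5619.7 CPM in AD/KO replicate 2, the second panel peaks in AD replicate 2, and in the third Trf is the only gene below AD replicate 1 in AD/KO.

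Because the level of the lineage as a whole differed between libraries, ratios between members within a library were compared, which no scaling can move. The pairs were chosen after the values were seen. Reads of Mbp were 7.09, 4.57, 14.9 and 36.1 times those of Mag. Reads of Mobp were 27.2, 14.7, 42.3 and 112 times those of Mog. The ratio of Bcas1 to Myrf was 1.73, 1.11, 2.98 and 6.69, and that of Qdpr to Opalin 8.27, 4.56, 14.7 and 22.0. At the lineage stage, the ratio of Olig1 to Sox10 was 0.629, 0.784, 1.22 and 2.20. In these 5 pairs both AD/KO libraries lay above both AD libraries. Each pair set a member with a higher mean in AD/KO over a member with a lower mean there. The direction was therefore largely set by the choice, and no share over other pairs was computed.

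**Figure D4:**
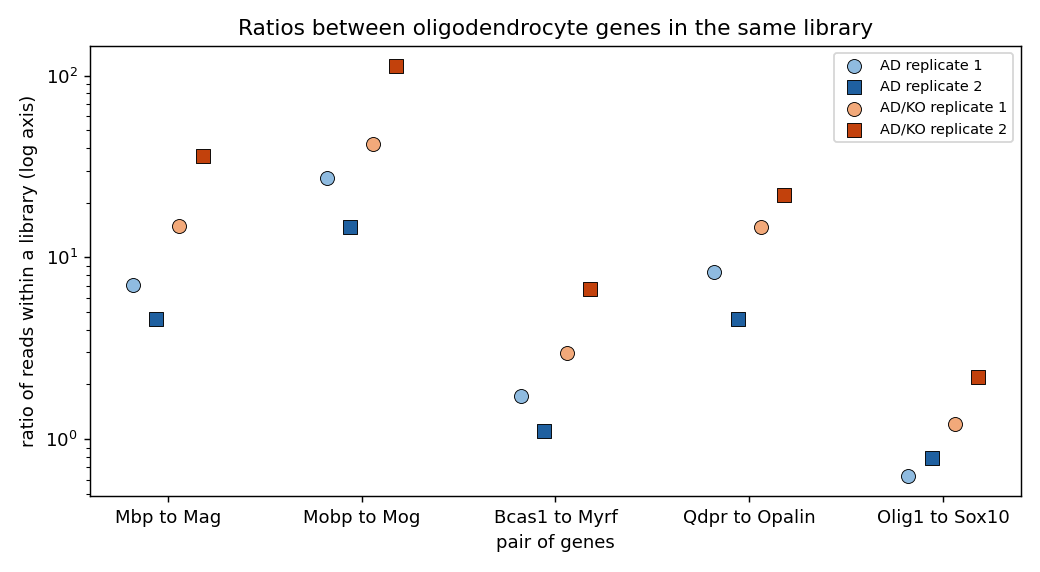
Ratio of reads of a pair of genes within the same library, on a log axis, for 5 pairs chosen after the values were seen. AD/KO points lie above AD points in each pair, from 14.9 and 36.1 against 7.09 and 4.57 for Mbp to Mag.

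The same was measured for every member against the mean log2 level of the 28. By construction some members then lie above and some below. The mean comes from these same genes and takes out a shift that they share. Other genes need not share that shift, so the shares of all genes below are not a like baseline. Relative to that mean, 9 members were higher in both AD/KO libraries (Olig1, Gpr17, Bcas1, Mbp, Mobp, Mal, Tspan2, Ndrg1 and Qdpr), against 15.0% of all genes. Another 9 were lower in both (Sox10, Enpp6, Myrf, Mog, Mag, Opalin, Fa2h, Gpr37 and Apod), against 12.7% of all genes. Each of these sets held genes of all 3 stages, so that the split did not follow the stages. The stages themselves kept close distances: the precursor and lineage mean lay 1.22, 1.07, 1.30 and 0.89 below the myelinating mean on the log2 scale, and the newly formed mean 0.81, 0.79, 0.72 and 0.63 below it.

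Libraries of the same label also differed. AD replicate 2 was higher than AD replicate 1 in 28 of 28 members, by a median of 2.24-fold, where 51.3% of all genes were higher. Aspa differed most, by 5.04-fold, and Trf least, by 1.06-fold. AD/KO replicate 2 was higher than AD/KO replicate 1 in 23 of 28 members, by a median of 1.69-fold, where 49.1% of all genes were higher. The exceptions were Enpp6, Mog, Mag, Aspa and Trf. AD/KO replicate 1 was lower than AD replicate 2 in 22 of 28 members, where 49.8% of all genes were lower. The 6 that were higher were Bcas1, Mbp, Mobp, Cnp, Qdpr and Sirt2.

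All 10 neuron and all 10 astrocyte markers were also higher in replicate 2 of each label. Microglia markers went the other way, with replicate 2 higher in 1 of 10 for AD and 0 of 10 for AD/KO. The mean log2 level of 10 neuron markers was 3.61, 5.36, 5.16 and 6.72, and that of 10 astrocyte markers 5.71, 7.02, 7.15 and 8.41. Microglia markers averaged 10.21, 9.68, 10.10 and 8.45. The 28 members lay 1.18, 1.42, 1.95 and 2.57 below the astrocyte markers and, against the neuron markers, at 0.92, 0.25, 0.04 and −0.88. For these 2 lists the labels did not overlap, and the AD/KO values were the lower ones. Against the neuron markers the gap between labels was only 0.25 to 0.04, while the AD libraries themselves stood at 0.92 and 0.25. How often other lists would separate in this way was not computed. For the levels of single genes, a separation in this direction was seen in 21.7% of all genes tested. Against the microglia markers the members stood at −5.68, −4.07, −4.91 and −2.61, and the labels overlapped. The share of these cells in the differences of single members was not tested.

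AD replicate 2, the highest library for 12 of the 28 members, was the highest for only 14.2% of all genes. It also had the highest neutrophil markers, with a summed level of 3265 CPM against 218 to 348 CPM in the other libraries. It had 1391 reads of Xist, the transcript of the inactive X chromosome in females, against 3 to 15. The part of either in the levels of Mog, Mag, Myrf and the other members highest there was not tested. The other 16 members were highest in AD/KO replicate 2, as were 38.5% of all genes.

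Cells other than oligodendrocytes can carry some of these transcripts. Of 5 Schwann cell markers, Pmp2 had 0 reads in all libraries, and the list summed to 168, 157, 153 and 54.6 CPM, mostly from Pmp22, which is not restricted to Schwann cells. The 8 mural and fibroblast markers, cells that can express Pdgfra and Apod, summed to 30.0, 62.0, 54.9 and 134 CPM. The 6 ependymal and choroid plexus markers, cells that can express Trf, summed to 8.85, 14.9, 11.4 and 36.3 CPM, and the 8 endothelial markers to 39.5, 51.8, 39.2 and 69.4 CPM. T cell and B cell markers summed to at most 11.7 CPM, and Trbc2 had 0 reads in all libraries. Their part in the levels of the members was not tested.

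**Figure D5:**
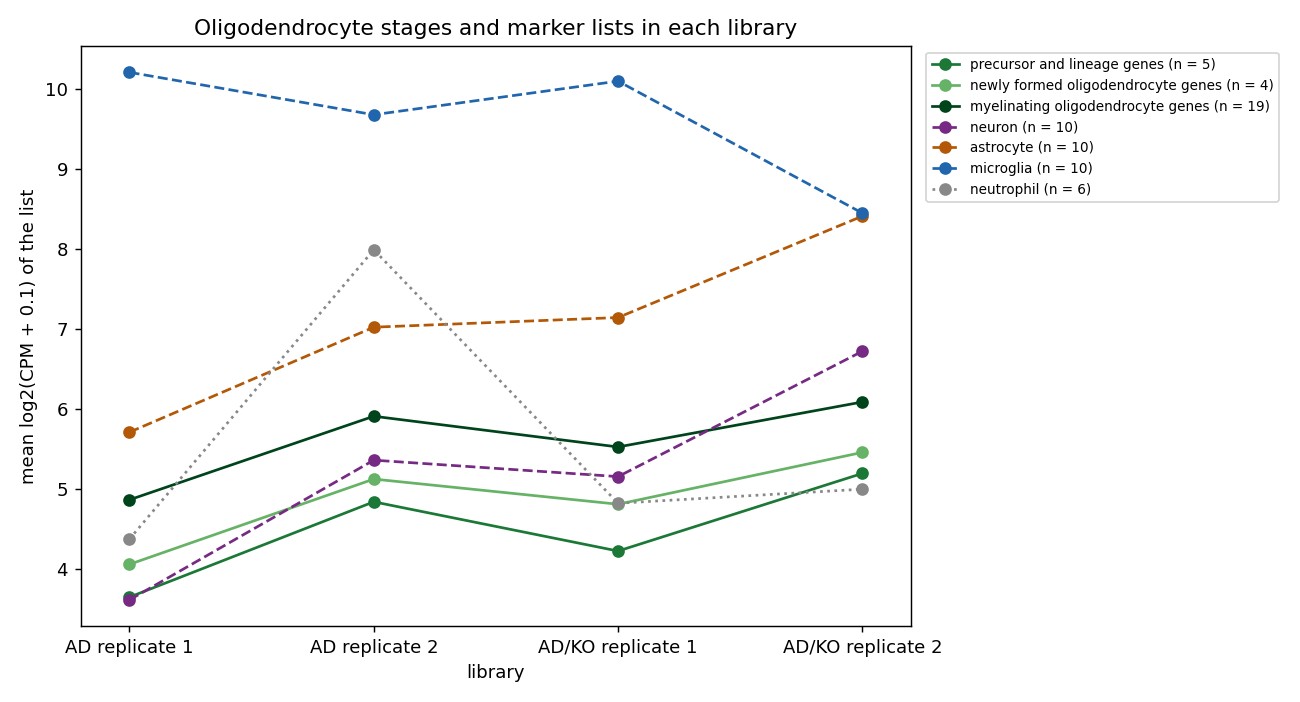
Mean log2(CPM + 0.1) of the 3 oligodendrocyte stages and of 4 marker lists in each library. Lines only join the values of a list. The 3 stages run in parallel, from 3.65, 4.06 and 4.87 in AD replicate 1 to 5.20, 5.46 and 6.09 in AD/KO replicate 2, while the microglia list is lowest there.

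A further 45 genes of the lineage that are not among the 28 were counted in the same way. In AD/KO 30 were higher and 15 lower, where 47.2% of all genes were higher. The median log2 fold change was 0.22, with 0 called. Both AD/KO libraries were above both AD libraries in 9 of 45, against 20.3% of all genes, and below in 2 of 45, against 21.7%. Of 10 other precursor genes, 8 were higher, and the most abundant were Ptprz1, a receptor phosphatase, and Cspg5, a chondroitin sulfate proteoglycan, which astrocytes also express. Ptprz1 was at 68.9, 187, 170.1 and 437 CPM (1.25, SE 0.70) and Cspg5 at 30.1, 80.4, 88.1 and 257 CPM (1.64, SE 0.73).

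Of 9 other newly formed genes, 7 were higher, with Nfasc, a cell adhesion molecule of nodes, at 194, 513, 386 and 637 CPM (0.53, SE 0.62). Itpr2, a calcium channel of the endoplasmic reticulum that is not restricted to the lineage, was at 394, 253, 309 and 165 CPM (−0.45, SE 0.48). Of 26 other myelinating genes, 15 were higher and 11 lower. Plekhb1, a membrane-binding protein, followed Mbp at 101, 196, 312 and 697 CPM (1.76, SE 0.60), and Cntn2, an adhesion molecule beside the node, was at 166, 457, 252 and 427 CPM (0.13, SE 0.62).

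The direction of the stage medians rested on single libraries. Without AD replicate 1 the medians were −0.06, −0.10 and −0.13 for the precursor and lineage, newly formed and myelinating genes, and without AD/KO replicate 2 they were −0.28, −0.0048 and −0.09. Without AD replicate 2 they were 1.24, 1.23 and 1.04. In 12 members the direction was the same with each library left out (Bcas1, Cnp, Gpr17, Mal, Mbp, Mobp, Ndrg1, Olig1, Qdpr, Sirt2, Trf and Tspan2). Mbp then ran from 1.17 to 2.38. Bcas1, Cnp, Mbp, Mobp, Qdpr, Sirt2 and Trf had no overlap between the groups, so leaving out a library could hardly reverse them. The share of all genes that kept their direction was not computed. Scaling to the microglia markers moved the median of all genes from −0.05 to 0.78. All 28 members were then higher in AD/KO, as were 81.4% of all genes, so that the count mostly follows the scaling. The median of the members was 1.32, with 0 called, and the 10 members lower under TMM changed direction.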

How the data were processed

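Whole-number read counts per gene symbol were deposited by the authors, 1 table per library, and were not normalized. Per the labels' protocols, RNA was extracted with TRIzol, depleted of ribosomal RNA and made into strand-specific libraries. Per the submitters' processing notes, FastQC, HISAT2, SAMtools, featureCounts, Subread and DESeq2 1.30.0 were used with mm10; the annotation, the use of strand and the treatment of multi-mapping reads are not given in the sources used here. In each deposited file, 11 lines held no count and were left out, none of them a member. No column was left without a sample (0).

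Counts were tested with edgeR 4.0.16 in R 4.3.3: filterByExpr (minimum count 10, minimum total 15), TMM scaling, then the quasi-likelihood test with the label as the only term. Adjusted p-values follow Benjamini-Hochberg across every gene tested (threshold 0.05), and the standard error (SE) was the size of the log2 fold change over the square root of F. List means used log2(CPM + 0.1). On simulated counts with 200 of 20767 genes changed by 3 on the log2 scale, 66.5% were called and 3.62% of the calls were false. The changed genes were drawn from the more abundant genes. Smaller changes, such as those of the members, were not simulated.

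Exon lengths and overlaps came from GENCODE M21 and positions from RefSeq, both on GRCm38, which is mm10. BLAST 2.17.0 (identity at least 95% over at least 100 bases) found near-identical transcripts only in genes that overlap a member. No molecular identifiers are named in the sources used here.

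All 28 members were named, and of each list of other oligodendrocyte genes the 2 with the highest mean level. Members, stages and lists were chosen with earlier results of these data known. The alternatives were DESeq2 1.42.0, DESeq2 size factors, no filter, a mean of 1 CPM, the replicate number as a block, scaling to the microglia markers and leaving out each library.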

Additional observations from a re-analysis of the deposited data

How the results depend on the processing

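Among 340 alternative values, 275 stayed on the side of the threshold and in the direction first found (medians within 1 SD of replicates, counts within 1.5 times), 13 moved further, 9 passed the threshold and 43 changed direction. Directions changed only with a library left out or with scaling to the microglia markers. With a library left out, 1 group holds a lone library, which is assumed to vary like the pair of the other group, so these calls say little about stability. The 4 fits called 0 to 524 genes, and 0 members in each. The medians ran from −0.28 to 1.24 for precursor and lineage genes, −0.10 to 1.23 for newly formed, −0.13 to 1.04 for myelinating and −0.14 to 1.15 for all 28. Log2 fold changes of the 16 members that changed direction ran as follows: Apod −0.70 to 0.65, Aspa −1.17 to 1.23, Cldn11 −0.15 to 1.04, Enpp6 −0.61 to 0.27, Ermn −0.42 to 1.12, Fa2h −0.69 to 0.50, Gpr37 −0.48 to 0.87, Mag −0.85 to 0.40, Mog −0.99 to 0.57, Myrf −0.84 to 0.64, Nkx2-2 −0.26 to 1.17, Olig2 −0.31 to 1.24, Opalin −0.99 to 0.51, Pdgfra −0.28 to 1.32, Sox10 −0.57 to 0.45, Ugt8a −0.11 to 1.37.

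With scaling to the microglia markers, the medians were 1.45, 1.25 and 1.27 for the 3 stages and 1.32 for all 28. Over all genes the median was then 0.78, and 81.4% were higher in AD/KO. The members that changed direction stood at Sox10 0.68, Enpp6 0.47, Myrf 0.50, Mog 0.32, Mag 0.38, Opalin 0.38, Fa2h 0.70, Aspa 0.22, Trf 0.077, Apod 0.75. DESeq2 called 90 genes and 0 members. The cause was not tested.

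AD and AD/KO share the replicate numbers 1 and 2, which the labels tie to no litter, batch or day. The differences between replicates correlated across genes between the groups (0.72). With the replicate block, 4333 genes were called, 20.2% of those tested, and 9 members (Olig1, Gpr17, Bcas1, Mbp, Mobp, Mal, Tspan2, Ndrg1 and Qdpr), all higher in AD/KO. The block leaves fewer residual degrees of freedom than the main fit. Replicate 2 had 1391 reads of Xist in AD and 3 in AD/KO. These calls therefore rest on a pairing that the labels do not give. At 19 to 67 reads in its lowest library, the depth limits Aspa, Enpp6, Nkx2-2 and Opalin most.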
